A study of Arabidopsis thaliana with 8 samples.

Results

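The response to 30 min of red light was measured in Arabidopsis thaliana seedlings raised on lincomycin, which blocks protein synthesis in plastids. The extent of that block was not measured here. The comparison set 2 arrays of seedlings given red light on lincomycin (the red lincomycin group) against 2 arrays of seedlings kept in darkness on lincomycin (the dark lincomycin group). These are 4 of the 8 arrays of the series, chosen by their titles. All seedlings were wild type Col-0, 4 days old, grown at 21 degrees in darkness on medium with 1% sucrose. The other 4 arrays, from plates without lincomycin, form a dark group and a red group of 2 arrays each and serve here only to show where the response differed. The treatment label gives lincomycin at 220 µg/ml and the source label at 200 µg/ml, and the source label of red lincomycin replicate 1 does not name lincomycin, although its title does. Total RNA came from whole seedlings. Per the labels, the dark tissue was taken ahead of the light treatment and the light tissue at its end, so harvest time and light cannot be told apart, and whether both came from the same plates is not stated. The labels do not state whether replicates were separate cultures. The p-values therefore reflect the spread between arrays, which may be technical, and 2 arrays a group limit the precision. All 22746 probe sets that are not controls were described, of 22810 on the array.

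Lincomycin is an antibiotic that blocks translation on plastid ribosomes, and seedlings raised on it cannot build a working photosynthetic apparatus. Red light is read mainly by the phytochromes, which enter the nucleus on activation and bring about the loss of the phytochrome-interacting factors (PIFs). PIFs are bHLH transcription factors that keep growth and auxin genes on in darkness. Within the first hour of light their targets fall and a set of light-induced genes rises, before greening begins.

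Values below are log2 of the deposited intensity, and a change is the mean of the red lincomycin arrays minus that of the dark lincomycin arrays on the same scale, with its standard error (SE). Calls were made where the p of limma, adjusted by Benjamini and Hochberg across all 22746 probe sets, was under 0.05, with limma fitted to the 4 lincomycin arrays (2 residual and 5.19 prior degrees of freedom). The 4 arrays were fitted alone because their replicates lay closer together: the standard deviation of the difference between replicates was 0.211 in the dark lincomycin and 0.224 in the red lincomycin group, against 0.538 in the dark and 0.442 in the red group. This spread was known from earlier results of these data, so the choice of fit favours small p-values. On dark replicate 1 the actin controls were 18.7-fold brighter at the 3′ than at the 5′ end of the transcript. No other array exceeded 6.90-fold, which bears on the values without lincomycin. On lincomycin this ratio was 4.31 and 4.86 in the dark arrays and 5.36 and 5.97 in the red arrays, without overlap. Its bearing on the light comparison was not tested. Markers of both root and shoot were present in the lincomycin arrays. The root β-glucosidase PYK10 lay between 12.25 and 12.45 and the shoot polarity gene YAB3 between 7.42 and 7.75, while the stomatal regulators SPCH, MUTE and FMA lay between 3.24 and 4.02. Of the 3 root and 6 shoot markers measured by a probe set with 1 listed gene, none was called. The shoot markers took in FDH, matched by symbol to AT5G14780, whose use as a shoot marker was not checked.

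Red light on lincomycin raised AT3G02910, of the AIG2-like family, 4.86-fold and lowered the auxin repressor gene IAA29 5.02-fold, the largest increase and decrease among probe sets with 1 listed gene. The test called 150 probe sets (0.659% of those tested), 103 higher (0.453%) and 47 lower (0.207%). The increases were larger: their median was 1.12 (2.18-fold) and 13 reached 4-fold, whereas the median decrease was -0.91 (1.88-fold) and 2 reached 4-fold. Exactly 1 gene was listed for 65 of the called probe sets, 42 higher and 23 lower, and no gene for 83. At an unadjusted p under 0.05 there were 3272 probe sets (14.4%). The median change over all probe sets was -0.0024. The last adjusted p inside the threshold was 0.0498 and the first outside it 0.0503.

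The number of calls depended on which arrays entered the fit. A fit to all 8 arrays, which takes in the wider spread without lincomycin, called 14 of the 150 and no other probe set, 13 higher (0.0572% of those tested) and 1 lower (0.0044%). With 3 of the 4 arrays, the count was 23 without dark lincomycin replicate 1, 15 without dark lincomycin replicate 2, 520 without red lincomycin replicate 1 and 307 without red lincomycin replicate 2. IAA29, AT3G02910 and AT4G17670 were called in each of those fits.

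**Figure D1:**
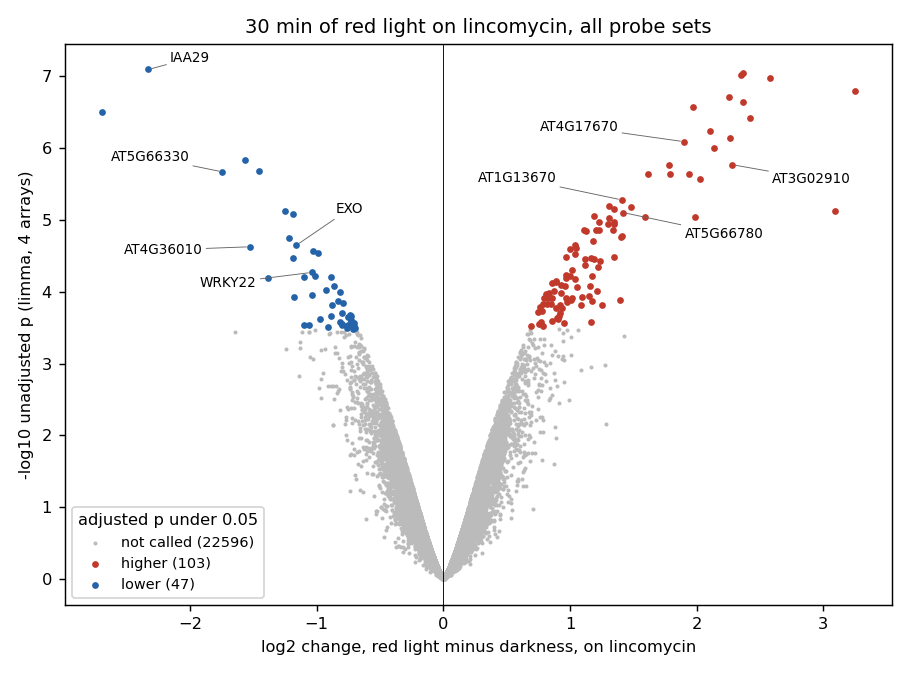
Log2 change with red light on lincomycin (horizontal axis) against -log10 of the unadjusted p (vertical axis) for every probe set, with 103 called higher in red and 47 called lower in blue. The increases reach further from 0 than the decreases, and IAA29 has the lowest p among the named decreases.

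IAA29 encodes an Aux/IAA protein, a short-lived repressor of auxin-responsive transcription, and its transcript is a known PIF target. It read 8.01 and 7.98 in the dark lincomycin arrays and 5.69 and 5.64 in the red lincomycin arrays. The groups lay far apart and the replicates within 0.1 of each other. Its change was -2.33 ± 0.11 (SE), a 5.02-fold decrease with an adjusted p of 0.000598. Without lincomycin IAA29 read 8.41 and 8.33 in darkness and 5.26 and 5.88 in red light, a change of -2.80 ± 0.21. The difference between the responses was 0.47 ± 0.29, with an interaction adjusted p of 0.643.

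Most genes on the hormone lists had no probe set with exactly 1 listed gene and are counted here as not measured. They may lie among the 8730 tested probe sets with no listed gene or the 503 with several. Auxin synthesis and transport was read by 5 of 38 genes, SAUR genes by 3 of 77, and auxin response factors and receptors by 0 of 24. The measured hormone genes held few calls beside IAA29, with 0 of 5 genes of auxin synthesis and transport and 1 of 3 SAUR genes called. Of the other decreases, EXO, the brassinosteroid-responsive growth gene EXORDIUM, read 10.85 and 10.66 in darkness and 9.65 and 9.55 in red light, a change of -1.16 ± 0.12 with an adjusted p of 0.0103. BRH1, a RING-H2 gene first described by its response to brassinosteroid, fell from 9.95 and 10.07 to 9.23 and 9.03. AT3G53250, of the SAUR family of early auxin genes, fell by 0.71 on the log2 scale and lay at the threshold with an adjusted p of 0.0498, which rose to 0.0622 without red lincomycin replicate 2 and to 0.224 and 0.314 without dark lincomycin replicates 1 and 2. AGO7, the argonaute of the trans-acting siRNA pathway, read 5.51 and 5.48 and then 4.77 and 4.77, a change of -0.73.

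The largest named decreases after IAA29 came from families with other roles. AT5G66330, a leucine-rich repeat protein gene, read 7.16 and 7.27 in darkness and 5.60 and 5.35 in red light, a change of -1.74 ± 0.13 with an adjusted p of 0.00237. AT4G36010, of the thaumatin family of pathogenesis-related proteins, fell from 7.99 and 8.43 to 6.63 and 6.73. AT1G77200, an AP2/ERF transcription factor gene, fell from 7.21 and 7.70 to 6.10 and 6.05. In all 3 genes every red lincomycin array lay below both dark lincomycin arrays, as the rule for naming required. So did 22.9% of all probe sets. WRKY22, a transcription factor gene of defence signalling, read 6.27 and 6.50 in darkness and 5.35 and 5.34 after light, a change of -1.04 ± 0.12. The other named decreases, AT4G35720, AT5G01790, AT4G16670, AT2G04500, AT1G54120, AT1G09750, AT1G72290 and AT1G76240, ranged from -1.19 to -0.76. AT1G09750 encodes an aspartyl protease and AT1G72290 a Kunitz-type inhibitor.

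AT3G02910 had the largest named increase. It read 6.20 and 6.64 in darkness and 8.77 and 8.62 in red light, a change of 2.28 ± 0.16 (4.86-fold, adjusted p = 0.00234). AT4G17670, of a plant zinc finger family, read 5.15 and 5.01 and then 6.89 and 7.07, a change of 1.90 ± 0.12 with an adjusted p of 0.00143. Both also lay higher in each red array than in each dark array without lincomycin, with changes of 2.93 ± 0.18 and 1.19 ± 0.18. AT1G14200, a RING finger gene, rose from 6.26 and 6.58 to 7.77 and 7.89, and its change of 1.41 was close to the 1.35 measured without lincomycin. AT1G13670 changed by 1.41 and AT4G35660 by 1.31, against 1.32 and 1.3 without lincomycin.

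Of the 8 measured flavonoid genes UGT78D2 was called. Few genes of light signalling had a probe set with 1 listed gene: 1 of 20 photoreceptors and partners, and 2 of 19 PIFs and related bHLH proteins. Of the COP/DET/SPA repressors 1 of 17 was measured, and of the light-promoting transcription factors 1 of 20. These genes were FHL, SPT, ALC, CSN5B and HYH, and none was called. AFR and AT2G16365, which those counts do not include, are shown for their known roles and were picked with their values in view. AFR, an F-box protein gene of phytochrome A signalling, read 5.16 and 5.30 in darkness and 6.26 and 6.28 in red light, a change of 1.04 ± 0.11 with an adjusted p of 0.012. AT2G16365, which encodes the phytochrome B-binding protein PCH1, rose from 5.16 and 5.05 to 6.20 and 5.94. UGT78D2, a flavonoid glucosyltransferase gene, rose from 5.54 and 5.36 to 6.35 and 6.48, a change of 0.96 ± 0.12. AT5G15950, a gene for S-adenosylmethionine decarboxylase of polyamine synthesis, rose from 5.66 and 5.47 to 6.70 and 6.52. In each of these 4 genes both light arrays lay above both dark arrays, as in all 103 probe sets called higher. Of all probe sets 21.7% did so.

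**Figure D2:**
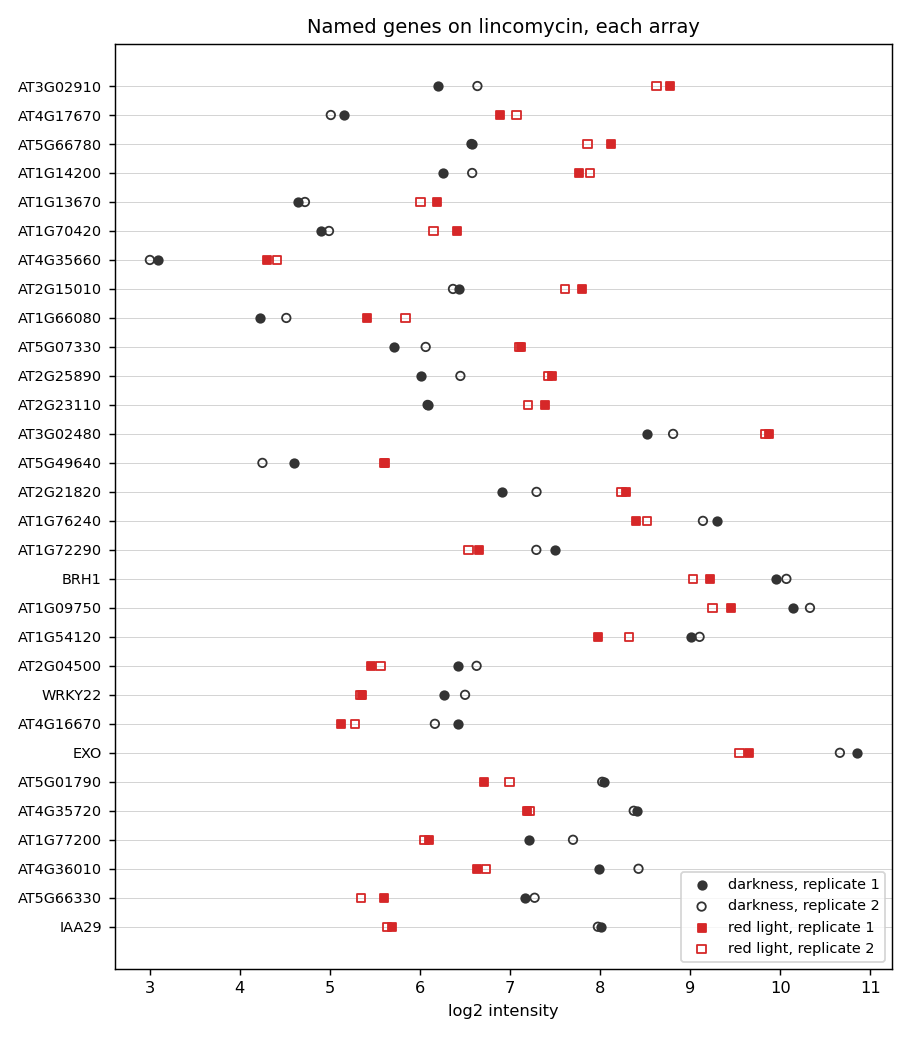
Log2 intensity (horizontal axis) of the 30 named genes on each of the 4 lincomycin arrays, with darkness as circles and red light as squares, replicate 1 filled and replicate 2 open. The 15 increases are at the top and the 15 decreases at the bottom, and in every gene shown the light arrays lie on one side of the dark arrays, as the rule for naming required.

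Some of the named increases were genes of the late seed. AT2G25890, an oleosin gene for the coat protein of oil bodies, read 6.01 and 6.45 in darkness and 7.47 and 7.42 in red light, a change of 1.22 ± 0.16. AT3G02480 and AT2G23110, of the late embryogenesis abundant (LEA) families of small hydrophilic proteins made in drying seeds, changed by 1.19 ± 0.13 and 1.21 ± 0.12. AT3G02480 read 8.52 and 8.81 in darkness and 9.87 and 9.83 after light, and AT2G23110 read 6.09 and 6.09 and then 7.38 and 7.20. AT2G21820, a seed maturation protein gene, rose from 6.92 and 7.29 to 8.29 and 8.24. The remaining named increases, AT5G66780, AT1G70420, AT2G15010, AT1G66080, AT5G07330 and AT5G49640, ranged from 1.18 to 1.42. AT2G15010 encodes a thionin, an antimicrobial peptide, and AT1G66080 is related to the heat shock carrier Hikeshi.

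A list of 52 LEA family genes and one of 8 oleosin genes were drawn up after these values had been seen, so their counts are descriptions and carry no test. Of the LEA genes 36 were measured: 6 were called higher (0.453% of all probe sets were) and none lower, 32 had a change above 0, and in 23 both light arrays lay above both dark arrays, where 21.7% of all probe sets did so. The median change was 0.39, against -0.0024 over all probe sets. Besides AT3G02480 and AT2G23110 the called members were AtLEA4-1 at 0.91, AT3G53040 at 0.89, AT4G36600 at 0.83 and M10 at 0.81. The mean over the 36 genes was 5.82 and 5.90 in the dark lincomycin arrays and 6.39 and 6.26 in the red lincomycin arrays. Of the 4 measured oleosin genes, AT2G25890 and AT3G01570 were called higher, and AT3G18570 and OLEO3 had changes of 0.14 and 0.07. AT3G01570 read 8.38 and 8.58 in darkness and 9.67 and 9.54 after light on lincomycin, and 7.89 and 7.88 in darkness and 8.59 and 8.87 after light without it.

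Without lincomycin 5 of the 36 LEA genes lay higher in both light arrays and 11 lower in both, where 16.9% and 18.2% of all probe sets did. Their mean was 6.23 and 6.13 in the dark group and 5.78 and 6.10 in the red group, and their median change was -0.11. The dark lincomycin arrays thus lay below both dark arrays without lincomycin. AtLEA4-1 read 7.59 and 7.90 in darkness and 8.62 and 8.68 after light on lincomycin, but 8.63 and 8.29 in darkness and 8.27 and 8.16 after light without it. The interaction had an unadjusted p under 0.05 in 15 of the 36 genes, where 10.4% of all probe sets had one, and in none did it pass the adjusted threshold. In RNA of whole seedlings, fewer cells of a type and less RNA per cell cannot be told apart.

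Seed storage protein genes could be followed only in part. Of the 23 genes on the list of seed storage and oil body proteins 3 were measured, and 1 was called. PAP85, a vicilin-like storage protein gene, read 8.05 and 8.15 in darkness and 9.16 and 8.87 in red light, a change of 0.91 ± 0.13 with an adjusted p of 0.0404. ICL, isocitrate lyase of the glyoxylate cycle that feeds on seed oil, had a change of -0.01 ± 0.12 and the oleosin gene OLEO3 by 0.07 ± 0.11. The mean of the 3 genes was 9.82 and 9.88 in the dark lincomycin arrays and 10.28 and 10.08 in the red lincomycin arrays. The part of seed material in the LEA values was not tested. No LEA gene was called when either dark lincomycin array was left out or in the fit to 8 arrays, and 10 were called without red lincomycin replicate 2. PAP85, UGT78D2 and WRKY22 likewise lost their calls without either dark lincomycin array, with adjusted p between 0.0975 and 0.244.

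**Figure D3:**
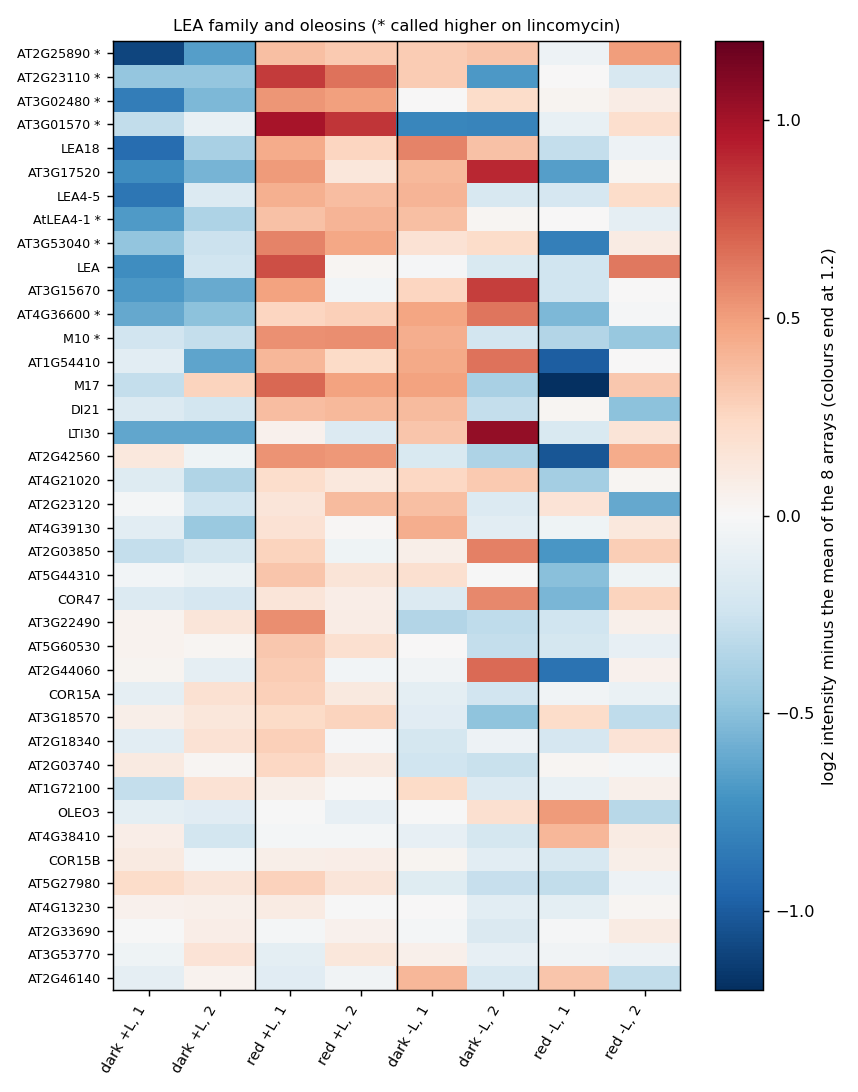
Log2 intensity of the 36 LEA genes and 4 oleosin genes (rows) on the 8 arrays (columns), each shown as its difference from the gene's mean over the 8 arrays, with +L and -L for plates with and without lincomycin and asterisks for the 8 genes called higher on lincomycin. Most upper rows turn from blue in the dark lincomycin columns to red in the red lincomycin columns. Without lincomycin AT3G01570 lies higher in both red columns, while most other upper rows do not.

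The pathways usually followed in de-etiolation were described from 36 lists of 1115 genes, of which 215 genes in 33 lists had a probe set with 1 listed gene. Of the 215, 5 were called (2.33%, against 0.481% of all probe sets with 1 gene): IAA29, AT3G53250, UGT78D2, WRKY22 and PAP85. The lists were chosen with earlier results of these data known, so the difference in share is not a test. Of 5 measured dark- and shade-promoted PIF targets, IAA29 fell and HAT2, a homeodomain gene, had a change of -0.66 ± 0.11 with an adjusted p of 0.0657 and both light arrays below both dark arrays. EXPA8, FHL and BIM1 had changes from -0.02 to 0.16. Of 7 Aux/IAA genes IAA29 alone was called, and the other 6 had changes from -0.26 to 0.41. GH3.3, an auxin-conjugating enzyme gene, had a change of -0.67 ± 0.13 with an adjusted p of 0.0863 (0.0448 without red lincomycin replicate 2), and 0 of 5 GH3 genes were called.

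Cell wall loosening was measured by 26 expansin and xyloglucan endotransglucosylase genes, which let walls extend. None was called and the median change was -0.11. Both light arrays lay below both dark arrays in 10 of them, where 22.9% of all probe sets did so, and above in 3, where 21.7% did. The lowest was EXPB1, a β-expansin gene, which read 8.05 and 8.28 in darkness and 7.35 and 6.96 in red light. Its change of -1.01 ± 0.16 had an adjusted p of 0.0506, just outside the threshold, and it was called under 7 of the 13 alternatives, among them without red lincomycin replicate 1 (adjusted p 0.00342) and without red lincomycin replicate 2 (0.0289).

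Of the 30 genes on the list of early light-induced genes 4 were measured, and none of these was called on lincomycin. The rest may lie among the probe sets with no listed gene, which held 83 of the 150 calls, so their response is not known here. GI, the clock gene GIGANTEA, read 6.87 and 6.80 in darkness and 7.01 and 6.88 in red light on lincomycin, a change of 0.11 ± 0.11. Without lincomycin GI read 5.88 and 5.95 in darkness and 7.21 and 6.85 after light, a change of 1.11 ± 0.16. The 2 dark lincomycin arrays thus lay about as high as the light arrays of either medium. The difference between the responses was -1.0 ± 0.23, with an interaction adjusted p of 0.336. The other 3 measured genes of the list, the polyamine gene SAMDC, the zinc finger gene STZ and the bZIP gene HYH, had changes of -0.16, -0.15 and -0.02 on lincomycin and 0.67, 0.74 and 0.13 without it.

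The nuclear photosynthesis genes that were measured, a minority of each list, did not pass the test on lincomycin. They were 4 of 27 antenna protein genes and 8 of 42 photosystem and electron transport genes. The tetrapyrrole list gave 12 of 42 genes and the Calvin cycle and photorespiration list 5 of 33. None was called, and the median changes were, in that order, 0.04, 0.05, -0.01 and -0.13. PORB, a light-dependent protochlorophyllide reductase, read 10.61 and 10.67 in darkness and 10.28 and 9.92 in red light, a change of -0.54 ± 0.14 with an adjusted p of 0.165. PSAN, a photosystem I subunit gene, read 8.54 and 8.47 and then 9.05 and 8.94, a change of 0.49 ± 0.11 with an adjusted p of 0.123. In both genes the groups did not overlap. LHCB4.1, an antenna protein gene, read 10.66 and 10.77 and then 10.59 and 10.02, a change of -0.41 ± 0.19 with an adjusted p of 0.378. Its red replicates differed more than the groups did. With red lincomycin replicate 2 as the only light array, PORB and LHCB4.1 had changes of -0.72 and -0.70 and adjusted p of 0.0339 and 0.0381. With red lincomycin replicate 1 as the only light array, the changes were -0.36 and -0.13 and the adjusted p 0.297 and 0.804.

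The plastid genome itself was read by 69 of its 78 listed genes. None was called, and their median change was -0.02, with 32 of 69 above 0. The mean over the 69 genes was 8.26 and 7.49 in the dark lincomycin arrays and 7.89 and 7.77 in the red lincomycin arrays, so the dark replicates differed more than the groups did. The lowest p belonged to ndhG, a subunit gene of the plastid NADH dehydrogenase-like complex, which read 7.11 and 6.78 in darkness and 5.97 and 6.22 after light, a change of -0.85 ± 0.15 with an adjusted p of 0.0723 (0.0171 without red lincomycin replicate 2). psbA, for the D1 protein of photosystem II, read 6.73 and 6.07 and then 7.36 and 6.90, a change of 0.73 ± 0.24 with an adjusted p of 0.231. None of the 11 measured genes of the mitochondrial genome was called, and their median change was 0.01.

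**Figure D4:**
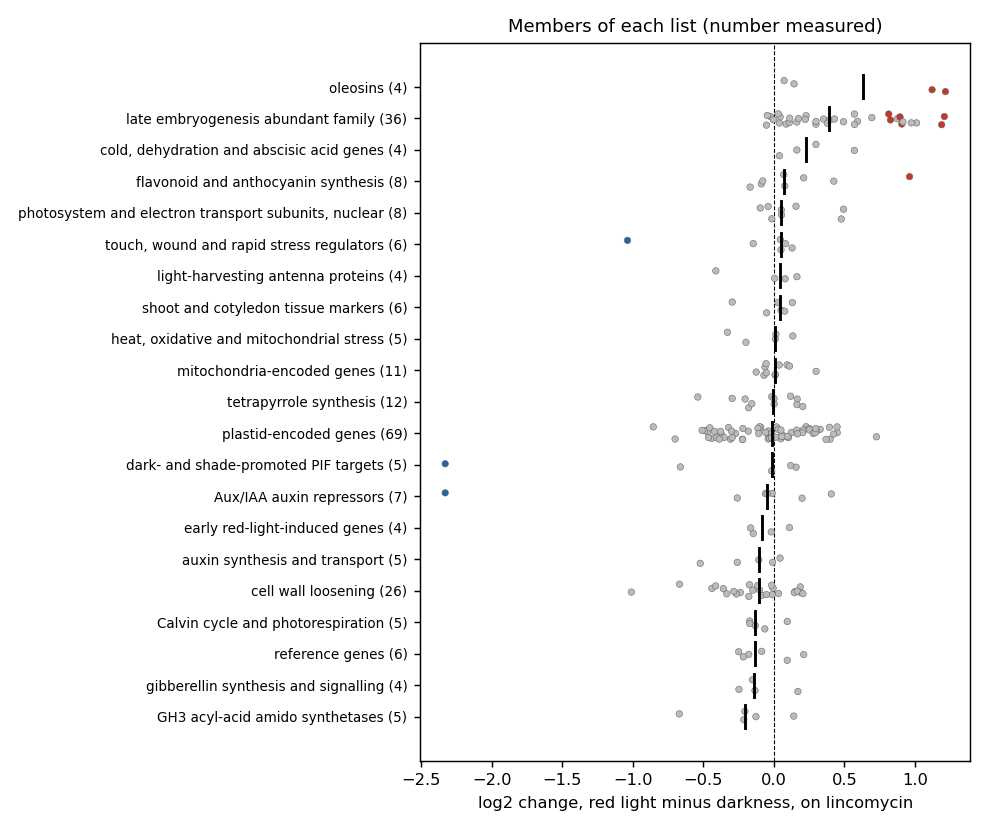
Log2 change with red light on lincomycin (horizontal axis) of the members of each list with at least 4 measured genes, 1 point a gene, with called genes in red (higher) or blue (lower) and the median as a black bar. The medians lie between -0.21 and 0.23 except those of the LEA and oleosin lists, at 0.39 and 0.63, drawn up with the values known.

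The response was then set beside that of seedlings without lincomycin, measured on 4 other arrays. Of the 150 probe sets called on lincomycin, 115 had a change of the same sign without it: 80 of 103 increases and 35 of 47 decreases. The median change of the increases was 0.85 there and that of the decreases -0.48. In 61 of the 103 both light arrays without lincomycin also lay above both dark arrays, where 16.9% of all probe sets did so, and 24 of the 47 lay lower without overlap, where 18.2% did. The fit to 8 arrays called 43 probe sets without lincomycin, 29 higher (0.127%) and 14 lower (0.0615%), and 22 of the 103 increases and 5 of the 47 decreases were among them, while a fit to the 4 arrays without lincomycin alone called 0 (0.0%). The opposite order without overlap was found for 10 increases and 6 decreases. Since the 150 were chosen by their change on lincomycin, a smaller median on the other medium is not a test of a difference.

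The values on both media are given here for genes that stood apart in the plot of both responses. AT5G15950 rose by 1.04 on lincomycin and had a change of 1.86 without it, and AFR rose by 1.04 and had a change of 1.69. AT5G66330 read 5.16 and 6.02 in darkness and 5.93 and 6.0 after light without lincomycin, with overlapping groups, beside its fall of 1.74 on lincomycin. AT3G26450, of the family of pathogenesis-related proteins like the birch pollen allergen, rose by 1.02 on lincomycin but read 7.48 and 7.95 in darkness and 5.72 and 7.20 after light without it. UPB1, a bHLH gene that acts on peroxidases in the root, rose by 1.15 on lincomycin and had a change of -0.38 without it.

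The test of the difference between the responses, the interaction of light and lincomycin over all 8 arrays, called no probe set (lowest adjusted p 0.316), and 2359 (10.4%) had an unadjusted p under 0.05. That test uses 1 spread for both media, which differed in spread. Without dark replicate 2 it called 609 probe sets, and without any other single array it called none. The dark group was then dark replicate 1 alone, the array with the actin ratio of 18.7, with its spread taken from the other groups. The 3 genes with the lowest p were AT5G22280, with a difference of 1.72 ± 0.19, AT1G56720 with 1.48 ± 0.20 and AT2G31110 with -1.62 ± 0.22. Without dark replicate 2, and so with that array as the whole dark group, their adjusted p were 0.0213, 0.0315 and 0.0192. AT5G22280 rose from 5.26 and 5.07 to 5.89 and 6.02 on lincomycin and read 6.45 and 6.38 in darkness and 5.48 and 5.48 after light without it. A second probe set of AT2G31110 differed by -0.10 with an interaction adjusted p of 0.962, so the probe sets of this gene disagreed.

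**Figure D5:**
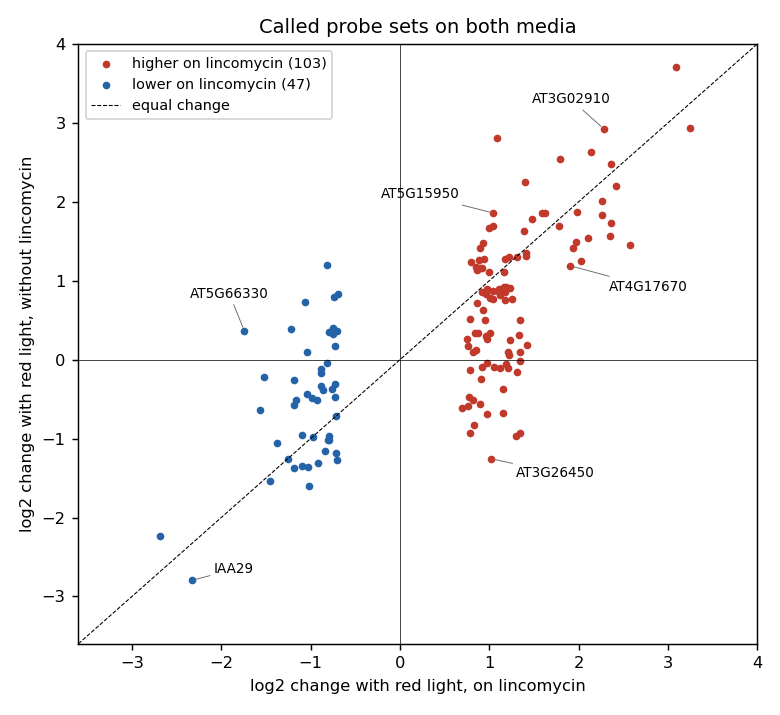
Log2 change with red light on lincomycin (horizontal axis) against that without lincomycin (vertical axis) for the 150 probe sets called on lincomycin, with the dashed line marking equal changes. All increases above 1.5 on lincomycin lie above 0 without it, some near the line, such as 254066_at, and some below it, such as AT4G17670 at 1.90 against 1.19. Increases of about 1 spread from below 0 to above 2 without lincomycin.

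Most of the calls had no listed gene. Of the probe sets with no gene 0.951% were called, against 0.481% of those with exactly 1. The 2 largest increases were 254066_at, which read 3.38 and 3.42 in darkness and 6.41 and 6.88 in red light, and 257262_at, which read 4.70 and 4.53 and then 7.24 and 8.18. Their changes were 3.25 ± 0.16 and 3.09 ± 0.27. The 2 largest decreases were 245276_at, from 9.06 and 8.65 to 6.15 and 6.18, and 250662_at, from 8.74 and 8.82 to 7.24 and 7.19. Without lincomycin 254066_at and 245276_at had changes of 2.93 and -2.23.

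The next called genes are in none of the lists and were picked with their values in view. AT5G37670, a small heat shock protein gene of the peroxisome, rose from 5.28 and 4.92 to 6.13 and 6.26, and AT3G09440, of the HSP70 family, rose by 0.76. AT2G40010, for a P0 protein of the ribosomal stalk, read 7.89 and 7.99 in darkness and 7.21 and 7.17 after light, a change of -0.75 with an adjusted p of 0.0404. AT3G10760 fell by 0.75 on lincomycin and had a change of 0.41 without it. Of 5 measured genes of the heat, oxidative and mitochondrial stress list none was called. Of 6 measured touch, wound and rapid stress genes only WRKY22 was called, and the other 5 had changes from -0.15 to 0.13.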

How the data were processed

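Per the labels, total RNA of whole seedlings was extracted with an RNeasy kit and labelled with biotin for Affymetrix arrays. The values are intensity per probe set and array as deposited by the authors, summarised with RMA per the submitters' processing notes. The version is not given in the sources used here. RMA normalizes arrays to one distribution, so changes are relative to the other probe sets. Here log2 was taken of the deposited intensity. Genes came from the platform annotation and RefSeq (TAIR10.1): 13513 probe sets had exactly 1 gene, 503 several and 8730 none, and 13502 of the first were matched to RefSeq. Where probe sets of a list gene were several, the brightest stood for it.

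Group means were fitted with limma 3.58.1 (lmFit, eBayes) in R 4.3.3, to the 4 lincomycin arrays for the light response and to all 8 for the interaction (4 residual, 3.19 prior degrees of freedom), with two-sided tests over 22746 probe sets. Summaries and figures used Python 3.11.15, pandas 2.3.3, numpy 2.4.6 and matplotlib 3.10.9. Named genes were the 15 largest increases and 15 largest decreases among called probe sets with 1 gene and no overlap, the 2 largest of each direction with no single gene, up to 3 called members or the lowest p of each list, and the 3 lowest interaction p. Members, lists and tests were chosen with earlier results of these data known. Same-numbered arrays deviated from their group means with a correlation of 0.13, over 2 pairs, so no pairing was used. Called genes, list members and pairs of probe sets printed outside this rule, such as AGO7, AFR, UPB1, HAT2 and psbA, were picked with their values in view. The fit was tested on simulated data. Promoter sequences were not analysed here.

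Alternatives were a common median, quantile normalization, leaving out the dimmest 30%, a floor at the 20th percentile (3.50 on the log2 scale), trend and robust eBayes, array weights, a replicate block, all 8 arrays, a 2-fold minimum and leaving out each array in turn.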

Additional observations from a re-analysis of the deposited data

Results flagged for a closer look

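In 11 of the named genes both light arrays lay on one side of both dark arrays on lincomycin and on the other side without it. Of all probe sets 9.50% did so. Named genes were chosen by a call, a low p or no overlap, so their count cannot be set against that share. AT5G22280, AT1G56720 and AT2G31110 had been named for their low interaction p, so the pattern was selected for in them. None of these differences between the responses passed the interaction test of limma at an adjusted p under 0.05, and all the values are the change on lincomycin minus the change without it, on the log2 scale. The difference was above 0 in seed maturation gene AT2G21820 at 1.84, LEA gene AtLEA4-1 at 1.15, dehydrin gene LTI30 at 1.27, AT5G22280 at 1.72 and AT1G56720 at 1.48. The difference was below 0 in root hair expansin gene EXPA7 at -1.58, AT2G31110 at -1.62, the polyamine gene SAMDC at -0.84, the antenna protein gene LHCB4.1 at -0.79, the bHLH gene SPT at -0.69 and the gibberellin receptor gene GID1C at -0.64. The lowest of the adjusted p was 0.316. EXPA7 read 5.38 and 5.88 in darkness and 5.37 and 5.01 after light on lincomycin.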

How the results depend on the processing

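The 150 calls became 14 in the fit to all 8 arrays, 29 with a floor at the 20th percentile, 231 with trend and robust eBayes, 740 with a replicate block (403 higher and 337 lower) and 86 with a 2-fold minimum. Without 1 array the count ran from 15 to 520. A common median gave 170, quantile normalization 142, array weights 158 and leaving out the dimmest 30% 199. Of the 150 calls, 9 were kept under all 13 alternatives, among them IAA29, AT3G02910 and AT4G17670, and 148 under most of them. Of the 30 named genes, 3 were called with all 8 arrays, 6 with the floor and 3 to 30 without 1 array. The 6 LEA calls became 0 with all 8 arrays, 0 with the floor, 13 with the replicate block, 2 with a 2-fold minimum and 0 to 10 without 1 array. Under the replicate block GH3.3, WAG2, EXPB1, LTI30 and ndhG passed the threshold. These LEA settings were added after seeing the data. The interaction called 0 probe sets under every alternative but 1, leaving out dark replicate 2, which gave 609, so its range without 1 array was 0 to 609. Of 821 values of named genes under an alternative, 658 kept direction and side of the threshold, 133 lost the call, 20 gained it and 10 changed sign. Those 10 were all of genes not called, without 1 array: FHL ranged from -0.14 to 0.38 (also -0.13), CSN5B from -0.049 to 0.035 (also 0.024), HYH from -0.18 to 0.14 (also 0.08), RR16 from -0.12 to 0.031, BIM1 from -0.0090 to 0.32, RCA from -0.38 to 0.036 and CaS from -0.052 to 0.40. The cause was not tested.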
